A study of Mus musculus with 18 samples.

Results

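The 32 genes described here encode the steps of glycolysis, from glucose uptake to lactate export, and the best known parts of the hypoxia response that acts on them. They are a list of gene symbols whose rule holds no measured value, although the list was drawn up with earlier results of these data known: 22 belong to glucose transport, glycolysis, lactate and pyruvate handling, and 10 to the hypoxia-inducible factor (HIF) system and its targets. All 32 were found once in each of the 18 gene tables, among 23284 symbols in the mouse tables and 25548 in the human ones.

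The series compared RNA levels in 6 groups of 3 libraries. Memory T helper 2 (Th2) cells of BALB/c mice, chosen for high ST2, the receptor of the alarmin IL-33, were kept in vitro for 3 days with IL-2 (replicates 1, 3 and 5) or with IL-2 and IL-33 (replicates 2, 4 and 6). IL-2 was thus present in both Th2 groups. Eosinophils were cultured for 3 days without or with amphiregulin, a ligand of the epidermal growth factor receptor (numbers 2, 3 and 4 in both groups). Whole lungs came from BALB/c mice treated with OVA, labelled W.T. or dGATA K.O. (1, 2 and 3 in both groups). All lungs of both groups were OVA-treated, whereas the series design text names house dust mite, and the labels do not spell out dGATA. The labels do not say whether libraries of a group came from separate animals, cultures or donors, nor what the eosinophil numbers mark. The p-values therefore measure the spread between these samples, which may be technical.

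Glycolysis splits glucose into pyruvate and yields ATP without oxygen, and lactate dehydrogenase turns pyruvate into lactate so that the pathway can go on. HIF-1α and HIF-2α are transcription factor subunits that prolyl hydroxylases mark for destruction while oxygen is present. When they persist, they bind short hypoxia response elements and raise glucose transporters, glycolytic enzymes and survival or vessel-growth genes. Activated T cells are known for raising glycolysis even in oxygen, and their HIF-1α can also accumulate on receptor and cytokine signals. HIF control acts largely on the proteins, which RNA levels do not show.

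Levels are FPKM, fragments per length of transcript and per mapped fragments of the library, so genes can be set side by side per length. Relative depth, with the first library of a comparison set to 1, was 0.67 to 1.34 in the Th2 cells, 0.36 to 1.0 in the eosinophils and 0.58 to 1.0 in the lungs. The eosinophil tables carry human gene symbols and chromosome lengths, against labels that name mouse. They are read here as human, with no coordinates, and their members are written in human symbols. In them the eosinophil gene CLC lay at 867 to 4483 FPKM, EPX at 0 to 23.6 FPKM, and 6 neutrophil markers summed to 6736 to 19827 FPKM. In the Th2 libraries the 6 T cell markers summed to 1121 to 2071 FPKM and the macrophage, neutrophil and dendritic cell lists to at most 8.67 FPKM. The 5 eosinophil markers of the mouse tables summed to 6.36 to 9.18 FPKM in the dGATA lungs and 18.5 to 27.8 FPKM in W.T. Of the 4 tested, 2 were called lower. Prg2 lay at 0.079 to 0.677 FPKM in dGATA, against 6.00 to 12.2 FPKM in W.T. Epx was listed at 0 in all 3 dGATA lungs but was near the floor in W.T. too, at 0.228 to 0.388 FPKM. Siglec5 was the highest of the list in dGATA, with a mean of 6.09 FPKM.

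Because members of the hypoxia response are known to share a short element core, the promoters of the mouse members were searched for ACGTG and GCGTG on both strands, in RefSeq windows (GRCm38.p6) from 250 bases before to 50 after each start. The table held 43 windows of 30 members, and none of Slc2a3 or Epas1. ACGTG occurred in 22 of these 30 genes (73.3%), against 21.8% of 27025 genes with a window, and either motif occurred in 27 (90.0%) against 46.7%. A gene counted if any of its windows held the motif. By window the shares were 58.1% against 19.6% for ACGTG, and 81.4% against 43.8% for either motif. Member windows were also richer in G and C (62.1% against 53.8%), and the part of this in the motif count was not tested. Genes later found higher with IL-33 held ACGTG in 11 of 14 cases, uncalled ones in 10 of 15, and Slc16a1, the single lower one, also held it. A match is a run of letters and not a binding site. The stretches printed are those of the 2 lactate transporter genes, which moved in opposite directions, of Ldha and Pgk1, whose windows hold several cores, and of the higher members P4ha2 and Bnip3. Each is written 5′ to 3′ with either core, or its reverse complement, in capitals. The palindrome CACGTG counts once on each strand. Whole stretches end at the base before the start, and 30 bases are shown where another transcript of the gene overlaps the window.
Slc16a3 stretch (chr11:120949037-120949066, plus strand): gtgACGTGcgcgggggACGTGccgcgcgac
Slc16a1 promoter (chr3:104638414-104638663, plus strand): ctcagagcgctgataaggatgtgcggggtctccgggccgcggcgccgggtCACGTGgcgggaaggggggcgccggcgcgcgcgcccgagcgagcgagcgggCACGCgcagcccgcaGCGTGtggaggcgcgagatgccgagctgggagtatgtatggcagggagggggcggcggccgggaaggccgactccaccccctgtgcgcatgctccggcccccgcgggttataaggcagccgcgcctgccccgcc
Ldha promoter (chr7:46845554-46845803, plus strand): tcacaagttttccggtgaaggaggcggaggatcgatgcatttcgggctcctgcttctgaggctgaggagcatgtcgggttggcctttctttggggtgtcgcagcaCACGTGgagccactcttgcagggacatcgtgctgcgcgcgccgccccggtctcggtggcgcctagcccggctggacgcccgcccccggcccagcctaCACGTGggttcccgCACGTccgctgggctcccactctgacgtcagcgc
Pgk1 promoter (chrX:106186850-106187099, plus strand): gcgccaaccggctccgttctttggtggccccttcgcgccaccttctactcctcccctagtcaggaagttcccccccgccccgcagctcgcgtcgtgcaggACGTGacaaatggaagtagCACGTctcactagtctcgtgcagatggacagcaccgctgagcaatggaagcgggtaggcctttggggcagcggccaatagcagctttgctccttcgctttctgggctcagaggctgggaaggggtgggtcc
P4ha2 promoter (chr11:54100674-54100923, plus strand): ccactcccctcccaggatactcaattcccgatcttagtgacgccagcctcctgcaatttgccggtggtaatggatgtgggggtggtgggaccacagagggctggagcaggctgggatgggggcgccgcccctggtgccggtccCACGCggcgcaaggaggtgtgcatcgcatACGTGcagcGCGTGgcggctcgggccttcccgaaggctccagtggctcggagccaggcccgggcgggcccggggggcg
Bnip3 stretch (chr7:138909594-138909623, minus strand): CACGCgccgCACGTGccaCACGCtcccccg

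In Slc16a3 the cores began 27 and 14 bases before the start, in Slc16a1 between 200 and 134 bases, in Ldha between 145 and 34 bases, in Pgk1 at 150 and 131 bases, and in P4ha2 between 107 and 69 bases. The stretches of Slc16a1 and Slc16a3 both held ACGTG, in Slc16a1 only at the palindrome that began 200 bases before the start. Their RNA differed in direction, and the part of the motif in this was not tested.

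Before any contrast, the groups differed in which members dominated. In Th2 cells with IL-2 alone, Aldoa (aldolase A, 722 ± 40.2 FPKM), Ldha (lactate dehydrogenase A, 534 ± 45.8) and Pgk1 (phosphoglycerate kinase, 393 ± 21.3) were the highest members, each mean ± SD over 3 libraries. In W.T. lung the order began with Epas1, the HIF-2α gene (518 ± 43.6), then Aldoa (291 ± 34.6) and the vessel growth factor gene Vegfa (182 ± 26.4), with no overlap between these neighbours. In eosinophils without amphiregulin GAPDH (710.2 ± 134) and ALDOA (679 ± 122) led with overlapping values, followed by ENO1 (321 ± 94) and the lactate exporter gene SLC16A3 (229 ± 78.2), whose ranges met. All 32 members reached 1 FPKM in every Th2 library, 31 in every lung library of each genotype, 28 in every eosinophil library without amphiregulin and 30 in every one with it. The plot of levels in all libraries shows these orders.

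**Figure D1:**
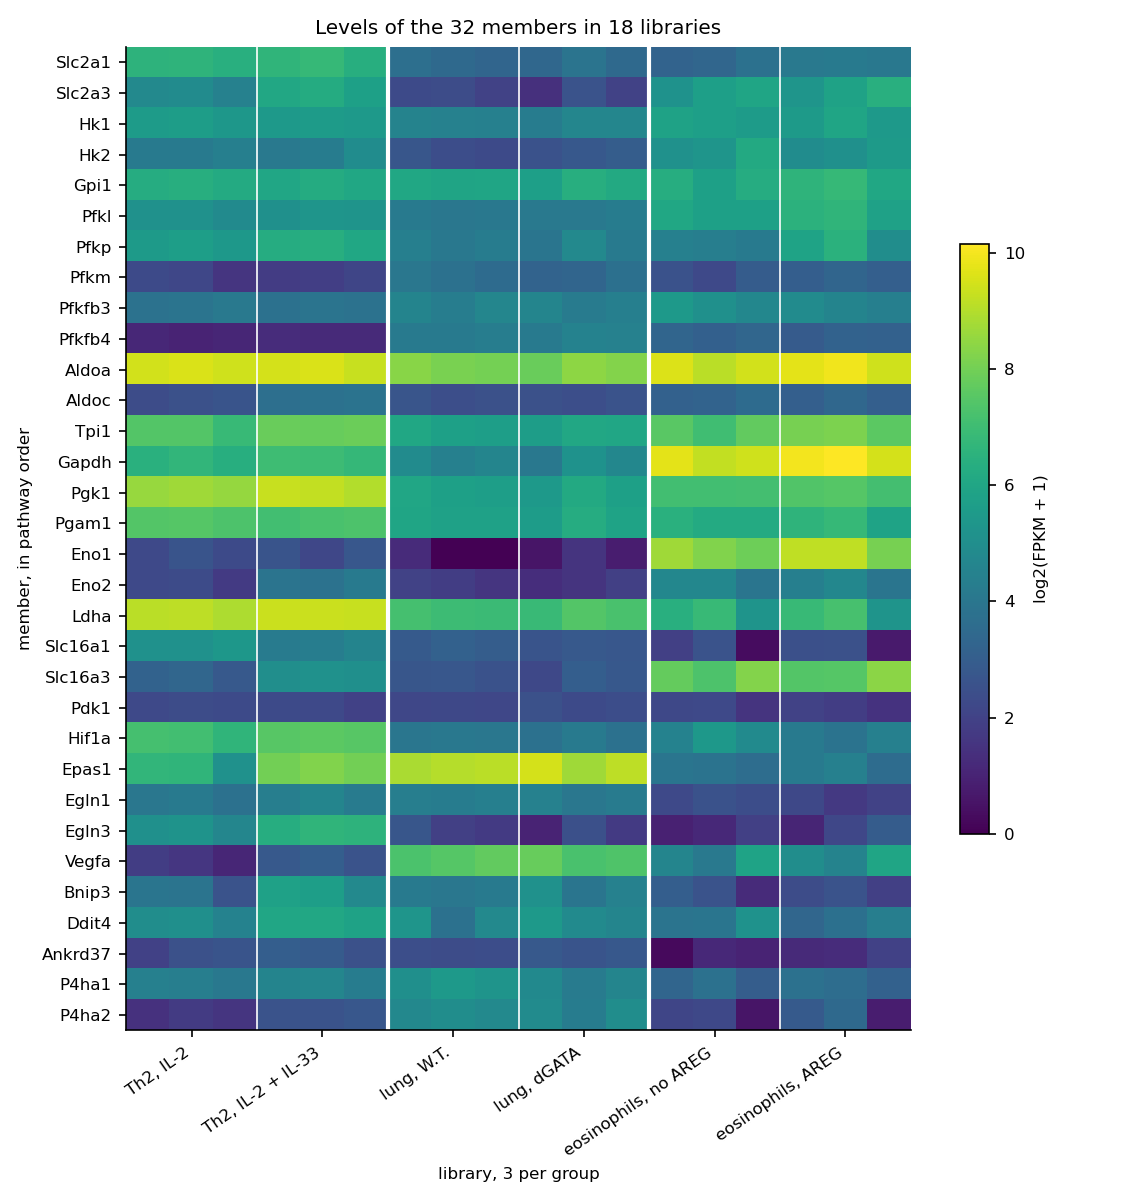
Level of each member (rows, pathway order, mouse symbols, with the human counterpart in eosinophils) in each of 18 libraries (columns, 3 per group), as log2(FPKM + 1) by colour. Th2 cells are high in Aldoa, Pgk1 and Ldha, lungs in Epas1 and Vegfa, and eosinophils in Gapdh, Aldoa and Slc16a3.

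Several levels are uncertain because members share sequence with other annotated genes. Of the 50-base stretches of GENCODE M21 transcripts, 53.9% of those of Pgk1, 47.2% of Bnip3, 36.2% of Pgam1, 26.0% of Eno1, 25.1% of Gapdh (223 other genes), 17.0% of Ankrd37 and 15.8% of Gpi1 also occur in transcripts of other genes. None do for Slc16a1, Slc16a3, Epas1, Egln1, Egln3, Ddit4, P4ha1, Hk2, Aldoc, Pdk1 or Pfkfb4. Eno1, the common enolase, lay at only 3.47 to 5.7 FPKM in the Th2 tables but at 239 to 587 FPKM in the human ones, and Gapdh at 15.9 to 127 FPKM in the mouse tables against 594 to 1146 FPKM. The treatment of such reads in the counting is not stated in the labels. The part of shared sequence in these levels was not tested.

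The first comparison asked how memory Th2 cells respond to IL-33. With IL-33, 16 of the 32 members rose and 1, the lactate and pyruvate transporter gene Slc16a1, fell. The rises were in glucose import (Slc2a3), in a single isozyme of each of 3 steps (Pfkp, Aldoc, Eno2), in the middle of the pathway (Tpi1, Gapdh, Pgk1), in lactate export (Slc16a3) and in both HIF alpha subunits with most of the hypoxia targets. Of the 22 glycolysis and lactate members 8 rose and 1 fell, and of the 10 HIF and hypoxia members 8 rose and 0 fell. Over all 10296 genes tested, 42.1% were called, 16.3% higher and 25.7% lower. The members' 17 calls, 53.1% of 32, thus lay not far above that share, while their direction leaned to higher. The members' median log2 difference was 0.41 against -0.11 over all genes, and 28 of 32 lay above the latter. In 20 members the groups did not overlap, against 56.7% of all genes. Under a common sum (TPM) the all-gene median was -0.02 and the higher share of all calls 54.4%, and under median-of-ratios scaling -0.01 and 51.4%, against 38.8% as deposited. The members gave 17 higher and 1 lower under both, with Ldha gained. In such bulk samples fewer cells of a type and less RNA per cell cannot be told apart.

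**Figure D2:**
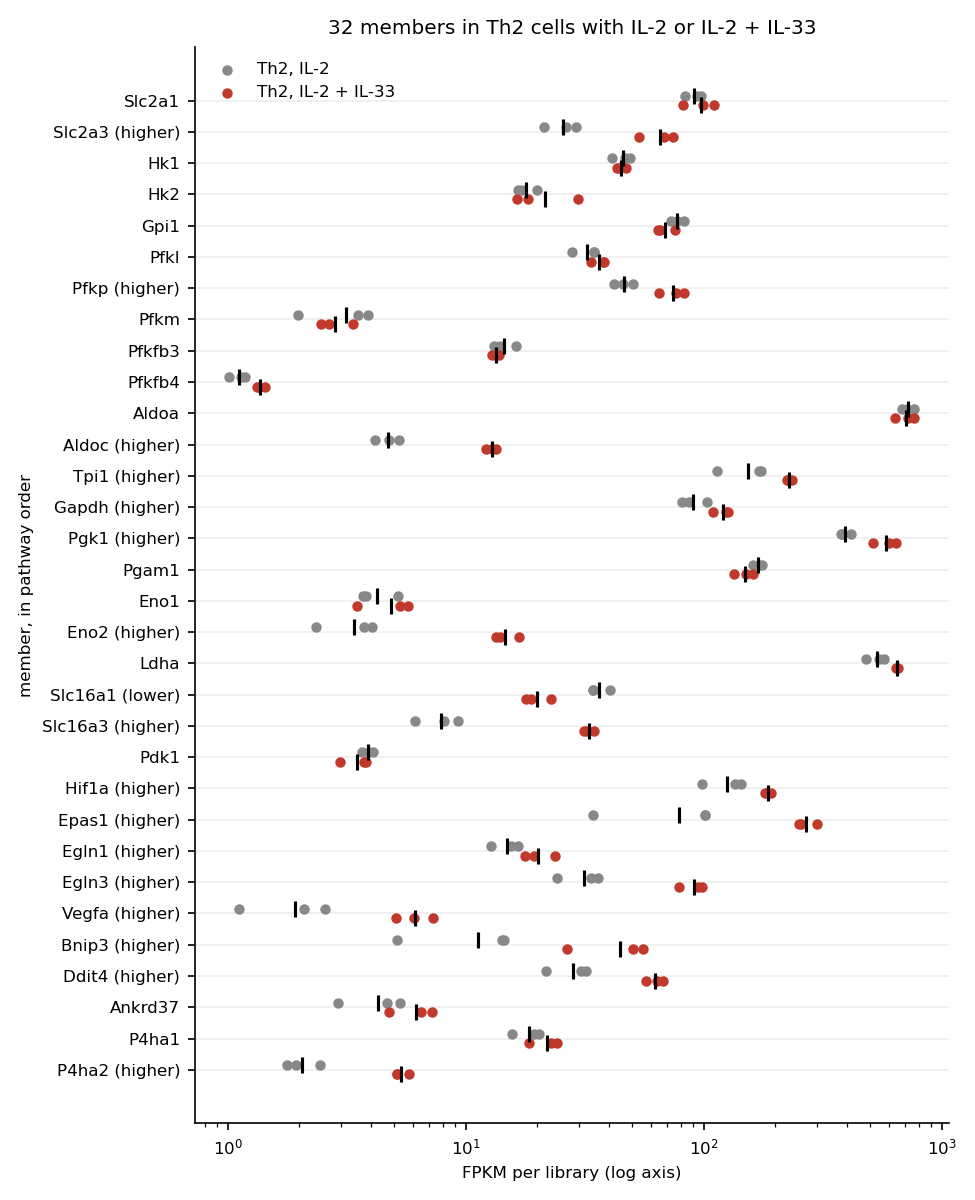
FPKM (log axis) of each of the 32 members in the 3 Th2 libraries with IL-2 (grey) and the 3 with IL-2 + IL-33 (red), with black ticks at the means. Members with an adjusted p below 0.05 are marked higher or lower, and Slc16a3, Eno2 and Slc2a3 show the groups apart, with Slc16a1 the other way.

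Glucose enters T cells through 2 carriers of this set. Slc2a3 (GLUT3, a high-affinity carrier, chr6:122727809-122742745, mm10) lay at 26.3, 29.2 and 21.4 FPKM with IL-2 alone and 67.8, 74.4 and 53.5 FPKM with IL-33. The groups did not overlap, and the mean rose 2.54-fold (log2 difference 1.31, SE 0.156, adjusted p = 0.00101, limma). Slc2a1 (GLUT1, the widespread basal carrier) lay at 93.8, 97 and 83.2 FPKM with IL-2 alone and 99.7, 111 and 81.5 FPKM with IL-33. Here the ranges overlapped and the difference did not pass (log2 difference 0.08, SE 0.128, adjusted p = 0.625, limma). Slc2a1 remained the more abundant of the 2 per length, but its share of their summed FPKM was 59.9% ± 0.427 with IL-33 against 78.2% ± 1.33 without. Folds are of mean FPKM, whereas log2 differences are on the log2(FPKM + 1) scale, which understates changes of low genes.

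Of the upper steps only phosphofructokinase held a called member, Pfkp. The hexokinases, which trap glucose as its phosphate, did not pass: Hk1 averaged 45.6 ± 4.04 FPKM without and 44.9 ± 2.09 with IL-33 (adjusted p = 0.871), and Hk2 17.9 ± 1.81 and 21.4 ± 7.14 (adjusted p = 0.456). Hk2 was uneven, with IL-33 replicate 6 at 29.6 FPKM and the other two at 16.4 and 18.3. Gpi1, the next enzyme, was at 77.5 ± 5.13 and 68.5 ± 6.5 FPKM and did not pass either. Of the phosphofructokinase isozymes, which carry the committed step, Pfkp (platelet type, chr13:6579874-6648724) lay at 45.6, 50.5 and 42.2 FPKM with IL-2 alone and 76.4, 82.4 and 64.6 FPKM with IL-33. It rose 1.62-fold without overlap (log2 difference 0.68, SE 0.115, adjusted p = 0.00433, limma). Pfkl (liver type, 32.4 ± 3.92 and 36.5 ± 2.52 FPKM) and Pfkm (muscle type, 3.12 ± 1.01 and 2.83 ± 0.475 FPKM) did not pass. Pfkp's share of the 3 was 56.5% ± 2.18 without and 65.3% ± 3.66 with IL-33. Pfkfb3 and Pfkfb4 make fructose-2,6-bisphosphate, the allosteric activator of phosphofructokinase. Neither passed, and Pfkfb3 (14.4 ± 1.63 and 13.4 ± 0.449 FPKM) held at least 90% of their sum in every Th2 library while Pfkfb4 stayed at 1.01 to 1.44 FPKM.

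Aldolase, which cleaves the hexose, showed the contrast of an abundant and a rare isozyme. Aldoa did not pass (log2 difference -0.03, SE 0.11, adjusted p = 0.864, limma), at 722 ± 40.2 and 710.3 ± 65.5 FPKM. Aldoc (aldolase C, chr11:78324198-78326760) lay at 4.15, 4.76 and 5.23 FPKM with IL-2 alone and 12.2, 12.9 and 13.4 FPKM with IL-33 and rose 2.72-fold (log2 difference 1.28, SE 0.0987, adjusted p = 0.000161, limma). Its share of aldolase RNA was still 1.79% ± 0.235, against 0.651% ± 0.096 without IL-33. In the triose steps, Pgk1, the first ATP-yielding enzyme (chrX:106187124-106203699), lay at 383, 418 and 379 FPKM with IL-2 alone and 640.4, 599 and 515 FPKM with IL-33, with no overlap, and rose 1.49-fold (log2 difference 0.57, SE 0.112, adjusted p = 0.00758, limma). Tpi1, which interconverts the trioses, lay at 171, 175 and 114 FPKM with IL-2 alone and 226, 223 and 236 FPKM with IL-33 (adjusted p = 0.0263), and IL-2 replicate 5 was the lowest of them. Gapdh, the NADH-yielding dehydrogenase, rose 1.33-fold, from 90.3 ± 11.4 to 120.1 ± 9.39 FPKM (adjusted p = 0.0255). The Tpi1 and Gapdh calls were each lost on leaving out IL-33 replicate 2 or 4, and in other alternatives. Pgam1, the phosphoglycerate mutase, was not called at 169 ± 7.39 and 149 ± 13.4 FPKM (adjusted p = 0.14), with the IL-33 libraries lower. Eno2 (neuron-type enolase, chr6:124760055-124769509) lay at 3.73, 4.04 and 2.35 FPKM with IL-2 alone and 14, 13.4 and 16.7 FPKM with IL-33, and rose 4.35-fold (log2 difference 1.86, SE 0.171, adjusted p = 0.000361, limma). Eno1 was at 4.23 ± 0.834 and 4.83 ± 1.19 FPKM and did not pass. Eno2 therefore held 75.5% ± 3.55 of enolase FPKM with IL-33 and 44.1% ± 6.04 without, a share that is only as sure as the Eno1 level above.

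The end of the pathway held the members that moved apart. Slc16a3 (MCT4, a carrier known for exporting lactate from glycolytic cells, chr11:120948484-120959000) lay at 8.09, 9.32 and 6.11 FPKM with IL-2 alone and 31.5, 34.6 and 32.2 FPKM with IL-33. All 3 IL-33 libraries were far above the IL-2 libraries, a 4.18-fold rise (log2 difference 1.95, SE 0.14, adjusted p = 0.000122, limma). Slc16a1 (MCT1, the widespread lactate and pyruvate carrier, chr3:104638668-104658462) lay at 34.3, 34.1 and 40.4 FPKM with IL-2 alone and 17.9, 18.8 and 22.8 FPKM with IL-33. It fell 1.83-fold, again without overlap (log2 difference -0.84, SE 0.116, adjusted p = 0.00182, limma). The Slc16a3 share of the 2 carriers was 19.1, 21.4 and 13.1% in the IL-2 libraries and 63.7, 64.8 and 58.6% in the IL-33 libraries. The more abundant carrier RNA was thus Slc16a1 without and Slc16a3 with IL-33, in every library. Ldha lay at 546, 572 and 483 FPKM with IL-2 alone and 647, 653 and 641 FPKM with IL-33. Its groups did not overlap, but the test was just missed as deposited (log2 difference 0.28, SE 0.0999, adjusted p = 0.0588, limma), and was passed under TPM (adjusted p = 0.026) and median-of-ratios scaling (0.0369), and with libraries 5 and 6 as a block (0.0266). Its adjusted p over all alternatives ran from 0.026 to 0.148. Pdk1, a kinase that inhibits pyruvate dehydrogenase, did not pass (3.9 ± 0.212 and 3.5 ± 0.474 FPKM). Of the 11 isozyme or paralogue shares computed, 10 did not overlap between the Th2 groups, Hk2 of hexokinase being the one that did. Pfkp and Pfkl are shares of the same sum and thus not independent. Shares of other genes were not computed for comparison, and 56.7% of all single genes did not overlap either. Each of the 10 had an exact two-sided permutation p of 0.1, the smallest that 3 against 3 can give, and 0.11 after Benjamini-Hochberg adjustment.

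**Figure D3:**
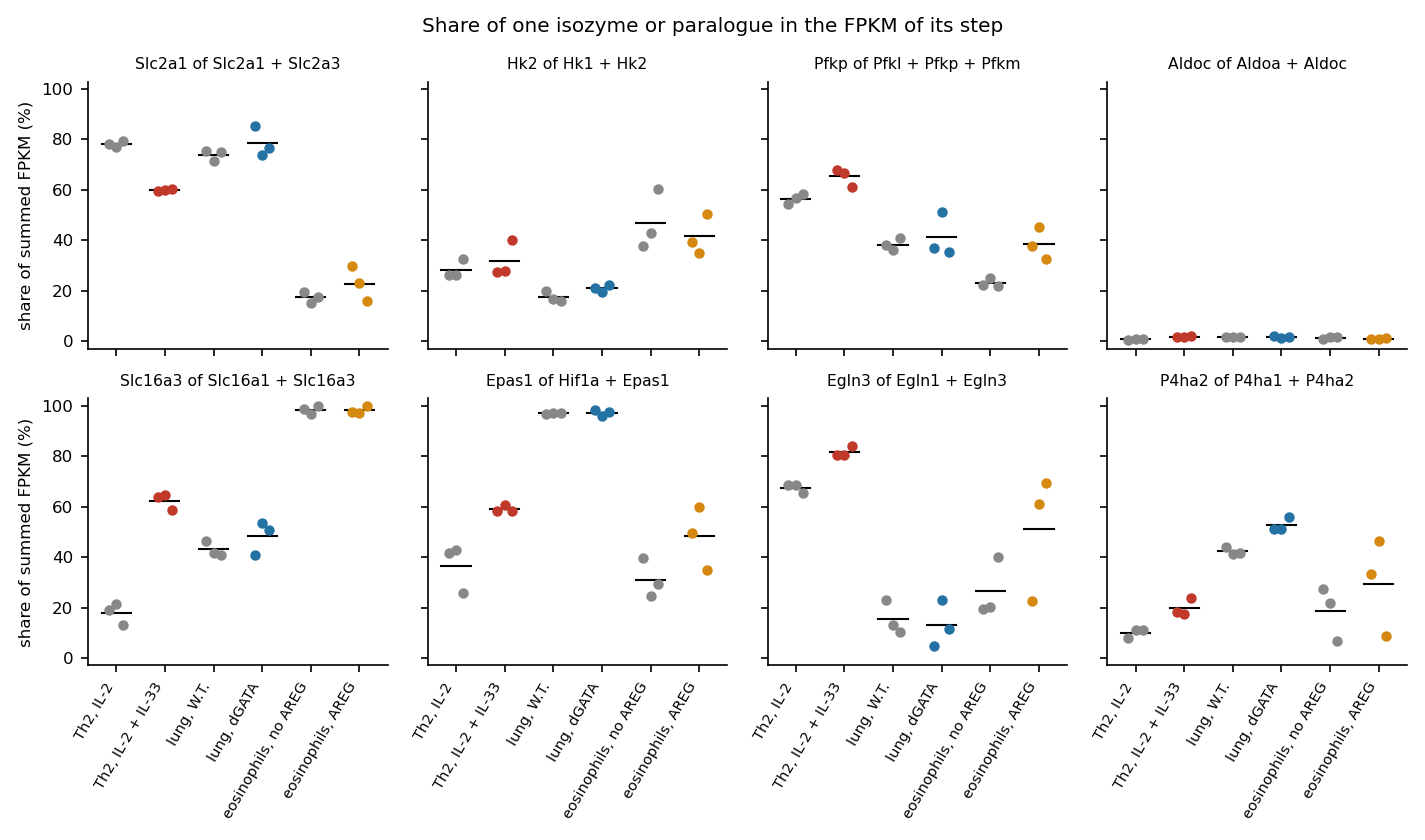
Share (%) of 1 member in the summed FPKM of its step, for 8 of the 11 shares, in each library (points) of the 6 groups, with bars at the means. Slc16a3 goes from 17.9% to 62.4% with IL-33 in Th2 cells and is near 98.5% in eosinophils, and Epas1 is near 97.1% in lung.

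Both HIF alpha subunit genes rose. Hif1a (HIF-1α, chr12:73907867-73947530) lay at 143, 135 and 98.5 FPKM with IL-2 alone and 185, 193 and 181 FPKM with IL-33, a 1.48-fold rise (log2 difference 0.58, SE 0.145, adjusted p = 0.0181, limma) that was lost on leaving out IL-33 replicate 2 or 4 (highest adjusted p 0.0655). Epas1 (HIF-2α, chr17:86753864-86833410) lay at 102, 101 and 34.1 FPKM with IL-2 alone and 257, 299 and 252 FPKM with IL-33. The IL-33 libraries were all higher and the IL-2 libraries unequal, with replicate 5 the lowest. The rise was 3.41-fold (log2 difference 1.91, SE 0.398, adjusted p = 0.00949, limma), and without libraries 5 and 6 the log2 difference was 1.44 (adjusted p = 4.91e-06). The latter fit set only replicates 1 and 3 against 2 and 4. Epas1 made up 36.6% ± 9.46 of the 2 subunits' FPKM without and 59.1% ± 1.51 with IL-33. Since Epas1 and Vegfa are also known from endothelium, its markers were read in the same libraries: Cdh5, Kdr and Tek were at 0 to 0.077 FPKM in all 6, and Pecam1, which leukocytes also carry, was at 23.6 to 41.7 FPKM without and 13.1 to 19.6 with IL-33. The oxygen-sensing hydroxylase genes, themselves HIF targets, rose too: Egln3 (PHD3, chr12:54178981-54203874) lay at 33.5, 36 and 24.2 FPKM with IL-2 alone and 78.9, 98.8 and 95 FPKM with IL-33, a 2.91-fold rise (log2 difference 1.52, SE 0.163, adjusted p = 0.000659, limma). Egln1 (PHD2) averaged 14.9 ± 1.91 and 20.2 ± 3.08 FPKM (adjusted p = 0.0468), a call that did not hold without the filter, nor when any single library other than IL-33 replicate 6 was dropped. Egln3 held 67.5% ± 1.82 of the pair without and 81.8% ± 2.18 with IL-33.

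Most of the named hypoxia targets rose as well. Bnip3, a mitophagy receptor, lay at 14.5, 14.1 and 5.12 FPKM with IL-2 alone and 55.6, 50.6 and 26.7 FPKM with IL-33, a 3.94-fold rise without overlap (log2 difference 1.94, SE 0.418, adjusted p = 0.0107, limma). The libraries numbered 5 and 6 were the lowest of their groups, and without them the log2 difference was 1.82 (adjusted p = 4.11e-07, limma). Fits without them set only replicates 1 and 3 against 2 and 4, so their small p rests on few, close libraries. Vegfa lay at 2.55, 2.08 and 1.12 FPKM with IL-2 alone and 6.07, 7.25 and 5.07 FPKM with IL-33, low in both groups, and rose 3.2-fold (log2 difference 1.31, SE 0.209, adjusted p = 0.00334, limma). Ddit4 (REDD1, an inhibitor of mTOR complex 1) lay at 30.6, 32.2 and 21.7 FPKM with IL-2 alone and 63.4, 67.5 and 56.9 FPKM with IL-33 and rose 2.22-fold (log2 difference 1.14, SE 0.154, adjusted p = 0.00168, limma). P4ha2, a catalytic subunit of collagen prolyl 4-hydroxylase, lay at 1.77, 2.45 and 1.94 FPKM with IL-2 alone and 5.13, 5.13 and 5.75 FPKM with IL-33, a 2.6-fold rise (log2 difference 1.06, SE 0.113, adjusted p = 0.000653, limma). Its paralogue P4ha1 (18.5 ± 2.44 and 21.9 ± 3.03 FPKM, adjusted p = 0.203) and the ankyrin-repeat gene Ankrd37 (4.29 ± 1.25 and 6.16 ± 1.25 FPKM, adjusted p = 0.123) did not pass, and did without libraries 5 and 6 (0.0239 and 0.00445). With those libraries as a block P4ha1 passed (0.0149) and Ankrd37 did not. P4ha2 nevertheless remained the minor subunit, at 8.01 to 23.7% of the FPKM of both.

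Genes of neighbouring pathways, from lists chosen by textbook role but with earlier results of these data known, did not all go the same way. Of 24 further hypoxia targets tested, 13 rose and 2 fell (5 fell without libraries 5 and 6, 4 with them as a block), with a median log2 difference of 0.65. The 4 with the smallest p were the chemokine receptor gene Cxcr4, from 8.25 ± 0.624 to 44.3 ± 4.04 FPKM (log2 2.29, adjusted p = 1.79e-05), the stress gene Ndrg1, from 18.6 ± 3.47 to 133 ± 8.0 FPKM (log2 2.79, adjusted p = 2.78e-05), the lipid droplet gene Hilpda, from 30.5 ± 4.0 to 143 ± 18.2 FPKM (log2 2.19, adjusted p = 5.71e-05), and Bnip3l, from 6.9 ± 0.526 to 14.4 ± 0.337 FPKM (log2 0.97, adjusted p = 0.000281). Of 13 other glycolysis genes 3 rose and 0 fell, and of 9 other HIF regulators 2 rose and 0 fell, shares not far from the 16.3% of all genes that were higher. These counts moved with the setting: 5 glycolysis genes were higher and 2 lower with libraries 5 and 6 as a block, and 4 HIF regulators were higher under median-of-ratios scaling, with 2 lower without libraries 5 and 6. Among the glycolysis genes Bsg, the chaperone (CD147) of both lactate carriers, went from 124 ± 7.0 to 258 ± 20.1 FPKM (log2 1.06, adjusted p = 0.000286), the carrier gene Slc2a8 from 1.74 ± 0.471 to 3.46 ± 0.307 FPKM (log2 0.71, adjusted p = 0.00859), and pyruvate kinase, listed as Pkm2, from 587 ± 73.4 to 758 ± 35 FPKM (log2 0.37, adjusted p = 0.0434). Among the HIF regulators Cited2, from 21.4 ± 1.32 to 39.8 ± 4.05 FPKM (log2 0.86, adjusted p = 0.000841), and Arnt, which encodes the HIF beta subunit, from 7.67 ± 0.242 to 9.57 ± 0.759 FPKM (log2 0.28, adjusted p = 0.0369), rose.

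The lists of pathways that compete for glucose carbon or burn pyruvate held falls and no rises as deposited, while median-of-ratios scaling gave 1 rise at pyruvate entry. In the pentose phosphate pathway 6 of 8 genes fell (5 under TPM, 4 under median-of-ratios), with a median of -0.48. They included G6pdx, its entry enzyme, from 25.6 ± 1.11 to 17.2 ± 0.751 FPKM (log2 -0.55, adjusted p = 0.00194), and Tkt, transketolase, from 87.6 ± 5.86 to 54.5 ± 6.91 FPKM (log2 -0.68, adjusted p = 0.00361). Rpia and Pgd were the other two with the smallest p. In the tricarboxylic acid cycle 9 of 16 fell, with 5 under TPM and 7 under median-of-ratios, and a median of -0.29. Citrate synthase, Cs, went from 82.2 ± 1.08 to 57.5 ± 1.89 FPKM (log2 -0.51, adjusted p = 0.00176), and Sdhb, a succinate dehydrogenase subunit, from 142 ± 2.62 to 102 ± 6.55 FPKM (log2 -0.48, adjusted p = 0.00395). Mdh2 and Suclg2 also fell. At pyruvate entry 4 of 10 fell (7 with libraries 5 and 6 as a block), among them the pyruvate dehydrogenase subunit genes Dlat, from 12.5 ± 2.09 to 8.3 ± 0.67 FPKM (log2 -0.53, adjusted p = 0.015), and Pdhx, from 7.55 ± 0.147 to 5.78 ± 0.185 FPKM (log2 -0.34, adjusted p = 0.0135), as well as Pdp1 and the carrier gene Brp44 (Mpc2). Of 12 regulators of glycolysis 5 fell (2 under TPM, 4 under median-of-ratios, 3 with no filter), among them Irf4, from 329.8 ± 12.5 to 204 ± 20.4 FPKM (log2 -0.69, adjusted p = 0.0021), Akt2 and Rptor, and Arrdc4, a repressor of glucose uptake, rose from 1.17 ± 0.63 to 2.79 ± 0.573 FPKM (log2 0.83, adjusted p = 0.0223), a call lost without libraries 5 and 6. All these values are limma on the same fit. Over all genes 25.7% were lower as deposited, and the shares of falls in the pyruvate entry and regulator lists were not far above that background. That background is not given for the other scalings. The higher share of all calls was 38.8% as deposited, 54.4% under TPM and 51.4% under median-of-ratios. The 6 cycling-cell markers summed to 131 to 147 FPKM without and 129.6 to 151 FPKM with IL-33, and 1 of them fell. The T cell markers summed to 1121 to 1293 and 1946 to 2071 FPKM, and 5 of 6 rose. The part of that difference in the members' changes was not tested.

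Of the 16 rises, 12 held in the 13 alternatives other than the block of libraries 5 and 6, and the fall of Slc16a1 did too. Tpi1, Gapdh, Hif1a and Egln1 were each lost in some, and leaving out IL-33 replicate 2 or 4 left 12 rises. Without libraries 5 and 6, whose titles spell ST2 high differently and whose relative depths were the lowest of the 6 (0.67 and 0.74), 18 members were higher and 3 lower, with Pfkm and Pgam1 joining Slc16a1. With libraries 5 and 6 as a block, a fit added after seeing the data, all 16 rises and the fall held, and Ldha and P4ha1 were also called.

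**Figure D4:**
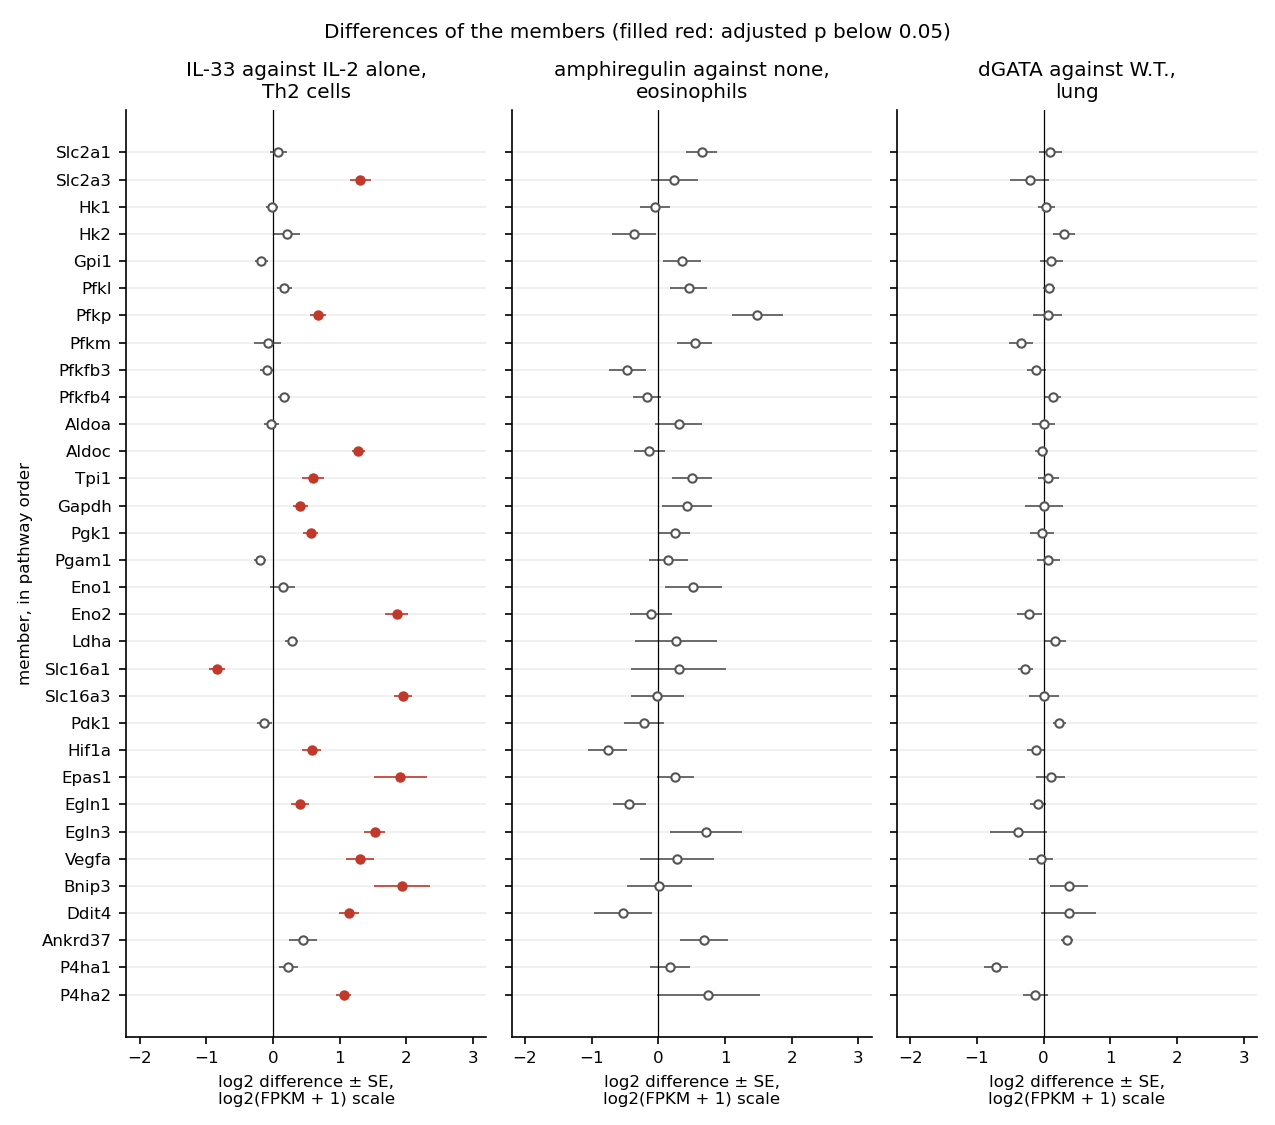
Difference of each member in log2(FPKM + 1) with its limma SE, for IL-33 against IL-2 alone in Th2 cells, amphiregulin against none in eosinophils and dGATA against W.T. in lung. Filled red points passed an adjusted p of 0.05: 17 in Th2 cells and 0 in the other two. Eno1 in lung lay under the expression filter.

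The second comparison asked what amphiregulin does to cultured eosinophils. None of the 32 members was called by limma, either with the 6 libraries alone (lowest adjusted p 0.927) or with the shared number as a block (0.0565). Few genes were: 0.206% of 12616 without and 1.12% with the block. Unadjusted, 3 members lay below 0.05 without the block, SLC2A1 and PFKP higher and HIF1A lower, and 8 with it, against 3.11% and 11.3% of all genes. In matched libraries 12 members were higher in 3 of 3 pairs and 6 lower, where 17.6% and 14.9% of all genes were. The groups did not overlap in 6 members, against 6.7% of all genes. The members' median log2 difference was 0.25, against 0.02 over all genes, and 0.46 against 0.21 under TPM. Of the few calls over all genes 15.4% were higher as deposited, 26.7% under TPM and all of them under TPM without small RNA features, with 0 member calls in each case.

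The largest log2 difference among the members was in the phosphofructokinase gene PFKP, at 20.3, 19.4 and 17 FPKM without amphiregulin and 59.3, 88.6 and 30.7 FPKM with it. The 3 libraries without amphiregulin lay close together and all 3 with it were higher, though by unequal amounts. The mean was 3.15-fold higher (log2 difference 1.49, SE 0.386, adjusted p = 0.927, limma), and with the block SE 0.258 and adjusted p = 0.0565. It passed with the block after TPM scaling (adjusted p = 0.0285) and without pair 2 or pair 4 (0.0012 and 7.8e-08), but not without pair 3 (0.2). The fits without a pair rest on 2 pairs each. PFKL lay at 66.2, 54.3 and 53.5 FPKM without amphiregulin and 90.3, 99.1 and 56 FPKM with it and PFKM at 4.83, 3.79 and 6.85 FPKM without amphiregulin and 7.22, 8.91 and 7.43 FPKM with it, the latter without overlap. The PFKP share of the 3 isozymes was 22.2, 25.1 and 21.9% without and 37.8, 45.1 and 32.6% with amphiregulin. These did not overlap (exact two-sided permutation p = 0.1, adjusted 0.367 over 11 shares), and PFKL remained the larger share in each library.

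Among the transporters, SLC2A1 lay at 8.48, 9.32 and 12.9 FPKM without amphiregulin and 16.3, 17 and 15.9 FPKM with it, with no overlap (log2 0.65, unadjusted p = 0.0252, limma, adjusted 0.999). SLC2A3 was the more abundant carrier, at 35.3, 51.8 and 61.3 FPKM without amphiregulin and 38.7, 56.7 and 85 FPKM with it, higher in each pair by less than the spread between pairs. SLC2A1 made up 15.3 to 29.6% of the 2 carriers in eosinophils, and in Th2 cells at least 59.5%. The lactate exporter SLC16A3 lay at 216, 158 and 313 FPKM without amphiregulin and 173, 177 and 339 FPKM with it, and SLC16A1 at 2.8, 5.03 and 0.249 FPKM without amphiregulin and 4.55, 4.77 and 0.685 FPKM with it, so SLC16A3 held at least 96.9% of the pair. LDHA lay at 84.8, 113 and 37.4 FPKM without amphiregulin and 115, 146 and 37.7 FPKM with it. Libraries of number 4 were the highest of their group in SLC2A3, SLC16A3 and VEGFA and the lowest in LDHA, SLC16A1 and P4HA2, with and without amphiregulin.

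Of the lower steps, GAPDH lay at 857, 594 and 680.1 FPKM without amphiregulin and 1022, 1146 and 720.0 FPKM with it, and ENO1 at 424, 299 and 239 FPKM without amphiregulin and 587, 579.9 and 266 FPKM with it. Both were higher with amphiregulin in each pair, and both ranges overlapped between the groups. ALDOA (679 ± 122 and 839 ± 145 FPKM), TPI1 (176 ± 39.7 and 249.5 ± 48.5), GPI (70 ± 13.5 and 90.7 ± 22.9), PGK1 (137 ± 3.46 and 163 ± 21.1) and PGAM1 (77.8 ± 6.9 and 89.3 ± 27) were higher in pairs 2 and 3 and lower in pair 4. HK2, at 34.4, 38.9 and 70.9 FPKM without amphiregulin and 29.4, 33.1 and 45.1 FPKM with it, and PFKFB3, at 44.3, 33.3 and 25.2 FPKM without amphiregulin and 29, 23.3 and 20.1 FPKM with it, were lower in each pair. HK1 (51.8 ± 5.38 and 50.3 ± 9.65 FPKM), ALDOC (9.03 ± 1.61 and 8.13 ± 1.23), ENO2 (21.4 ± 5.99 and 19.8 ± 5.54) and PFKFB4 (8.62 ± 0.857 and 7.57 ± 0.821) had pairs of both directions, and PDK1 (3.06 ± 1.01 and 2.47 ± 0.612) was lower in each pair.

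HIF1A lay at 21.9, 41.7 and 27.9 FPKM without amphiregulin and 17.4, 13.7 and 20.4 FPKM with it. Its groups did not overlap, and number 3 differed most (log2 -0.76, unadjusted p = 0.0385, adjusted 0.999, limma). EPAS1 averaged 13.1 ± 1.44 and 16.3 ± 4.95 FPKM. EGLN1 lay at 3.77, 4.93 and 4.26 FPKM without amphiregulin and 3.64, 2.23 and 3.01 FPKM with it, lower without overlap, and EGLN3 at 0.898, 1.25 and 2.84 FPKM without amphiregulin and 1.06, 3.53 and 6.83 FPKM with it, higher in each pair. DDIT4 was lower in each pair (13.9, 14.3 and 35.5 FPKM without amphiregulin and 9.24, 12.3 and 19.5 FPKM with it), and VEGFA higher in each (23.7, 16.4 and 58.7 FPKM without amphiregulin and 30.4, 22.1 and 62.3 FPKM with it). ANKRD37 lay at 0.19, 1.23 and 1.03 FPKM without amphiregulin and 1.31, 1.47 and 2.91 FPKM with it and P4HA2 at 3.32, 3.63 and 0.489 FPKM without amphiregulin and 6.37, 10.1 and 0.746 FPKM with it, both higher in each pair and the former without overlap. BNIP3 (4.5 ± 2.89 and 4.03 ± 1.2 FPKM) and P4HA1 (9.57 ± 3.03 and 10.8 ± 2.53) had pairs of both directions. None of these differences passed the adjusted test. Markers of other cells differed among the same libraries: the neutrophil list summed to 8033 to 19827 FPKM without and 6736 to 13680 FPKM with amphiregulin, the macrophage list to 548 to 2436 and 464 to 1248, the T cell list to 178 to 401 and 98.2 to 224, and the erythrocyte list to 1577 to 49906 and 972 to 27725. The eosinophil list itself summed to 1356 to 4730 FPKM without and 1086 to 2777 FPKM with amphiregulin. Its highest gene was CLC (means 2403 and 1549 FPKM). The median log2 difference of the list was -0.38, with 2 of 6 genes higher. PRG2 lay at 37.9, 29.9 and 26.2 FPKM without amphiregulin and 138, 108 and 8.635 FPKM with it. EPX lay at 1.45, 0 and 0.552 FPKM without and 23.6, 2.26 and 0.561 FPKM with it. The dendritic cell list, with 4 of 5 genes higher and a median of 1.66, summed to 13.5 to 228 and 22.8 to 272 FPKM. In pairs 2, 3 and 4 CD14 lay at 246, 221 and 14.3 FPKM without amphiregulin and 10.8, 12.5 and 0.852 FPKM with it. LYZ lay at 1367, 1134.5 and 200 FPKM without and 535, 466 and 127 FPKM with it. CD3E lay at 119, 93.45 and 53.3 FPKM without and 65.9, 51.7 and 27.6 FPKM with it. The log2 difference was above 0 in 0 of 6 T cell genes, 2 of 8 macrophage genes and 1 of 6 neutrophil genes. No marker of these lists was called. Their part in the differences was not tested. Of the 7 neighbouring lists, none held a gene called without the block.

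**Figure D5:**
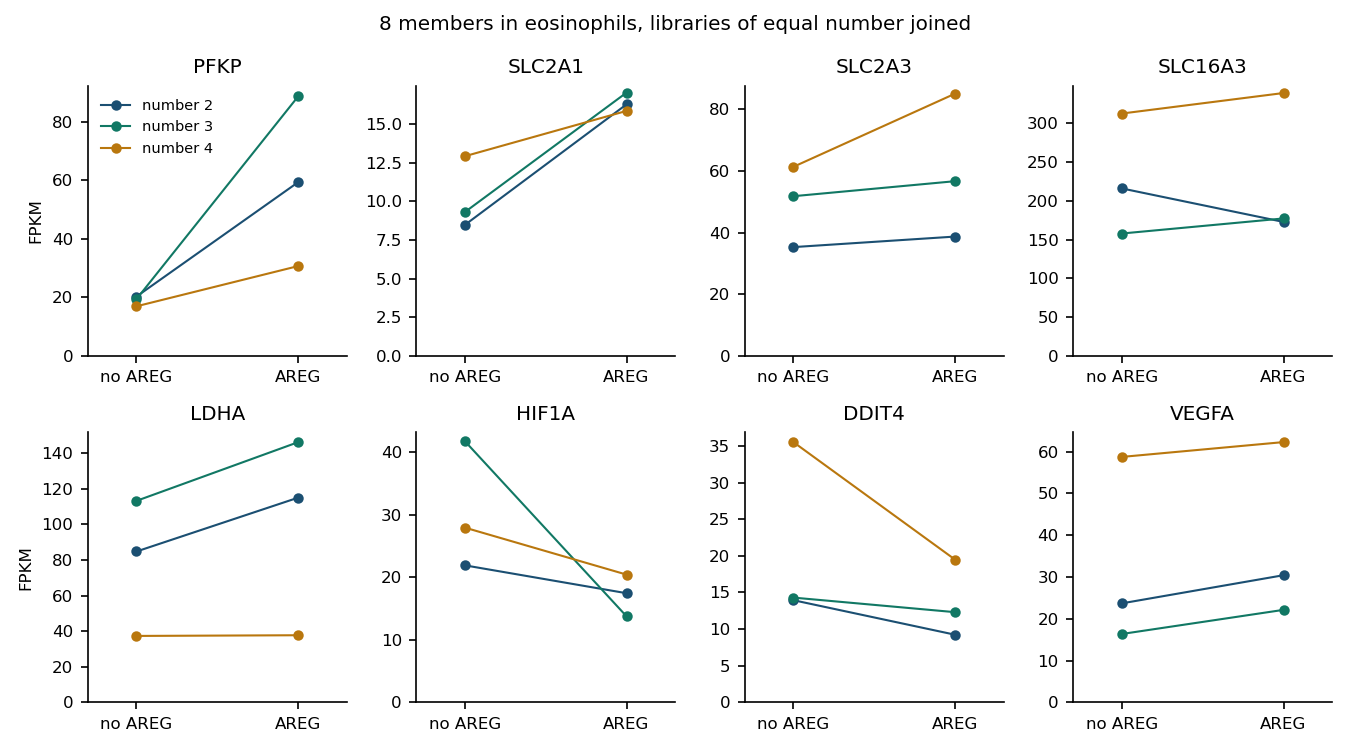
FPKM (linear axes from 0) of 8 members in eosinophils without and with amphiregulin, with a line for each number shared by a pair of libraries. PFKP and SLC2A1 are higher in all 3 pairs and HIF1A and DDIT4 lower, while number 4 sits apart in SLC16A3, LDHA and VEGFA.

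The third comparison set dGATA against W.T. lung. None of the 31 members tested was called, and 0.0947% of all 13727 genes were. Unadjusted, 3 members lay below 0.05, Ankrd37 higher and P4ha1 and Slc16a1 lower, against 6.84% of all genes. In 4 members the groups did not overlap, against 14.1% of genes. P4ha1 lay at 32.8, 43 and 37.7 FPKM in W.T. and 27.1, 17.6 and 24 FPKM in dGATA (log2 -0.71, unadjusted p = 0.00624, adjusted 0.516, limma), and P4ha2 at 25.6, 30.3 and 26.9 FPKM in W.T. and 28.5, 18.4 and 30.4 FPKM in dGATA. The P4ha2 share of the pair was 43.9, 41.3 and 41.6% in W.T. and 51.3, 51 and 55.9% in dGATA, the single one of 11 shares without overlap (exact permutation p = 0.1, adjusted 0.629). Ankrd37 lay at 4.47, 4.13 and 4.33 FPKM in W.T. and 6.12, 5.21 and 5.99 FPKM in dGATA (unadjusted p = 0.00818, adjusted 0.546, limma). Slc16a1 lay at 6.41, 7.96 and 7.02 FPKM in W.T. and 5.19, 6.25 and 5.72 FPKM in dGATA, and Pdk1 at 3.43, 3.66 and 3.42 FPKM in W.T. and 4.75, 3.86 and 4.32 FPKM in dGATA. The members' median log2 difference was 0.01, and -0.03 over all genes, and -0.09 and -0.13 under TPM.

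The glycolytic enzymes of the lungs overlapped between genotypes at every step from glucose uptake to Ldha. Aldoa lay at 330.4, 279 and 265 FPKM in W.T. and 231, 345 and 305 FPKM in dGATA, and Ldha at 144, 126 and 119.7 FPKM in W.T. and 117, 173 and 153 FPKM in dGATA. In dGATA, replicate 1 was the lowest and replicate 2 the highest in Slc2a3 (3.87, 4.08 and 3.03 FPKM in W.T. and 1.62, 5.03 and 3.07 FPKM in dGATA) and Gapdh (28.7, 20.4 and 23.6 FPKM in W.T. and 15.9, 35.6 and 24.8 FPKM in dGATA). The same replicate 1 was highest in Epas1 (472, 523 and 559 FPKM in W.T. and 729, 418 and 565 FPKM in dGATA), Vegfa (157, 180.5 and 209.8 FPKM in W.T. and 220.4, 151 and 166 FPKM in dGATA) and Bnip3 (17, 15.4 and 17.4 FPKM in W.T. and 34, 14.5 and 21.1 FPKM in dGATA). The erythrocyte markers summed to 195 FPKM in that library, the lowest of the dGATA lungs, and to 9162 FPKM in replicate 3, the highest, against 112 to 1010 FPKM in W.T. lungs. Endothelial markers were highest in replicate 1, where Cdh5 was at 282 FPKM against 194 and 221 in the other dGATA lungs, Kdr at 80.2 against 50.4 and 50.6, and Tek at 99.6 against 59.5 and 74.2, and the T cell gene Cd3e was lowest, at 6.01 against 16.4 and 11.4. Their part in these values was not tested. Leaving out replicate 1 gave no member call, with the lowest adjusted p at 0.189 for P4ha1. Hif1a averaged 15.5 ± 0.443 and 14.3 ± 2.49 FPKM, and Epas1 held 97.1% ± 0.204 and 97.4% ± 1.16 of the HIF subunit pair. Hk2 (4.6 ± 0.924 and 5.9 ± 1.03) and Pfkm (12.9 ± 2.22 and 10 ± 2.25) showed the next smallest p among the enzymes and overlapped. Eno1 lay below the filter, at 1.37 FPKM and close to 0 in the other two W.T. lungs, and at 0.483, 1.9 and 0.78 FPKM in dGATA (exact permutation p = 0.3). None of the genes of the 7 neighbouring lists was called.

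Setting all 6 Th2 libraries against all 6 lungs, which reuses the libraries above, placed the levels in context. The limma fit gave each group its own mean. The SDs and permutation tests in this comparison pool both groups of a side, so the Th2 spread includes the difference with IL-33. Tissue, culture and experiment cannot be told apart here, and 88.5% of 14148 genes were called, 34.0% higher in Th2 cells and 54.5% lower. Of the 32 members 20 were higher in Th2 cells and 7 lower, 84.4%, with a median log2 difference of 1.16 against -0.38 over all genes. Of the glycolysis and lactate members 17 were higher and 3 lower, and of the HIF and hypoxia members 3 and 4. The neighbouring lists did not share that direction: of 21 other glycolysis genes 3 were higher and 17 lower, with a median of -0.72, and of 29 other hypoxia targets 11 were higher and 17 lower, with a median of -0.81. Ldhb, the other main lactate dehydrogenase subunit, averaged 0.783 ± 0.297 FPKM in Th2 cells and 94.3 ± 16.3 in lung. Slc2a1 averaged 94.4 ± 11 FPKM in Th2 cells and 10.8 ± 1.93 in lung, 8.71-fold higher (adjusted p = 2.53e-10, limma), Slc2a3 45.4 ± 22.8 and 3.45 ± 1.16 (13.2-fold), and Pgk1 489 ± 113 and 56.4 ± 9.55 (8.66-fold). Hif1a averaged 156 ± 36.6 and 14.9 ± 1.73 FPKM, 10.5-fold higher in Th2 cells, and Egln3 61.1 ± 33.6 and 3.11 ± 1.7 (19.6-fold). Each of these was higher in every Th2 library than in every lung. In 22 members the groups did not overlap, against 71.1% of all genes. The lower members were Vegfa (4.02 ± 2.45 FPKM against 181 ± 28.6, 44.9-fold lower), Pfkfb4 (1.24 ± 0.156 against 18.8 ± 2.11), Epas1 (174 ± 108 against 544 ± 106), P4ha2 (3.69 ± 1.83 against 26.7 ± 4.47), Pfkm, Pfkfb3 and P4ha1. Gpi1, Pdk1, Egln1, Bnip3 and Ankrd37 did not pass, although Gpi1 did under median-of-ratios scaling and without dGATA replicate 2, and the Ddit4 call was lost on leaving out some libraries (highest adjusted p 0.0786). The shares that did not overlap were Epas1 of the HIF subunits (47.8% ± 13.7 in Th2 cells, 97.2% ± 0.760 in lung, SD, n = 6), Egln3 of the hydroxylases (74.6% ± 8.04 and 14.2% ± 7.31), Pfkfb3 of its pair (91.8% and 53.0%), P4ha2 (14.9% and 47.5%), Pfkp (60.9% and 39.7%) and Hk2 (30.1% and 19.2%). Each had an exact two-sided permutation p of 0.00216, the smallest that 6 against 6 can give, and 0.00397 adjusted over 11 shares.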

How the data were processed

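The deposited gene tables of 18 libraries hold FPKM values that the authors made with TopHat 1.3.2, Bowtie 0.12.8 and Cufflinks 2.0.2, with build mm10 named, per the submitters' processing notes. The eosinophil tables hold human symbols and coordinates, with a build that no label or header names. FPKM are not counts, so no count model was used, and absolute depth is unknown. Relative depth was read as the most frequent ratio, gene by gene, of FPKM values below 0.2 between a library and the first library of its comparison.

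Members were matched by symbol (uppercase for human, GPI for Gpi1). Before the eosinophil fits, 140 symbols tied to the Y chromosome or to X silencing were dropped from the human tables. Other X-linked genes, such as Pgk1, stayed in the fits. Genes that reached 1 FPKM in 3 or more libraries were fitted with limma 3.58.1 (R 4.3.3, trended variance) on log2(FPKM + 1), each comparison on its own groups, with Benjamini-Hochberg adjustment over all genes tested and a threshold of 0.05. Shares of isozymes and the lung values of Eno1 were tested by exact two-sided permutation (SciPy 1.17.1). The fit was tested on simulated data with independent noise for each gene and library. Those data held no deviation shared between libraries, so the test does not cover such deviations.

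Eosinophil libraries of the same number deviated together (correlations 0.399, 0.356 and 0.669), so the block by number is given beside their results. Numbers 2 and 3 also correlated with each other across groups (0.308 and 0.28), and each was negative with number 4.

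All 32 members are described, and of each neighbouring list up to 4 called genes with the smallest p. Members and lists were chosen with earlier results of these data known. Alternatives were another pseudocount (0.1), other filters (none, or 5 FPKM), TPM and median-of-ratios scaling, each library left out, replicate blocks, libraries 5 and 6 left out or as a block, small RNA features left out, and 1 model over the 12 mouse libraries.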

Additional observations from a re-analysis of the deposited data

How the results depend on the processing

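In the Th2 comparison the number of members higher with IL-33 was 16 as deposited and 12 to 15 on leaving out each library in turn, and 17 under TPM and median-of-ratios scaling. The number lower was 1 throughout those, and 3 without libraries 5 and 6. With those libraries as a block, a fit added after seeing the data, 18 were higher and 1 lower. In Th2 cells against lung, leaving out each library gave 19 to 20 members higher and 7 lower. The members' median log2 difference ran over the alternatives from 0.33 to 0.52 for IL-33, from 0.07 to 0.46 for amphiregulin, from -0.09 to 0.12 for dGATA and from 1.11 to 1.3 for Th2 cells against lung. No called member changed sign under the alternatives run.

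With the replicate block, 0 eosinophil members were higher and 0 lower, and the same counts came from leaving out each eosinophil library. One member, PFKP, counted as 1 higher with the block after TPM scaling, and with the block without pair 2 or without pair 4. These block fits were chosen after seeing the data, and the causes were not tested. Over all genes the block raised the eosinophil calls from 26 to 141. Lung libraries of the same number did not deviate together (correlations -0.286, -0.116 and -0.243). There the block gave 0 members higher and 0 lower, as did leaving out each lung library. In Th2 cells no replicate number is shared between the groups, so no block by number was fitted, and libraries 5 and 6, which share a title spelling (correlation 0.314), were taken as a block instead.

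A library's absolute depth is unknown, so no counting interval can be given for low members such as Vegfa and Pfkfb4 in Th2 cells.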
